A study of Homo sapiens with 9 samples.

Results

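Solute carriers are membrane proteins that move amino acids, sugars, lactate, nucleosides, metals, inorganic ions and drugs across the plasma membrane and the membranes of organelles. They are grouped by sequence into numbered families, and each member is named SLC, its family number, the letter A and its own number. Tumour cells draw on them for glutamine, essential amino acids and lactate exchange, and several, such as the glutamine carrier SLC1A5 and the large neutral amino acid carrier SLC7A5 with its partner SLC3A2, are abundant in breast cancer lines. The genes described here are the rows of the deposited log2 expression table whose symbol has that form, apart from the mitochondrial SLC25 family and SLC2A1, SLC2A3 and SLC7A11. They numbered 190 of the 18934 genes in that table, and their RNA was followed through the deposited counts.

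RNA was sequenced from MDA-MB-231, an established human line of basal type that stands for triple negative breast cancer. Lentivirus had given the cells a doxycycline-inducible vector for GFP with luciferase (control cells) or for GFP with luciferase and isoform 1 of oestrogen receptor beta (ERβ1 cells). All of them grew in doxycycline at 100 ng/ml, given for 3 days, and the remaining group consisted of ERβ1 cells treated for 24 h with CLI, which the labels call a ligand. Each of the 3 groups held 3 libraries. Control cells with CLI were not analysed here, so a ligand response that does not need the receptor cannot be told apart from one that does. The labels describe transduced cells and do not say whether the replicates were separate cultures, so the p-values reflect only how these libraries varied, which may be technical. The question the design poses is how the receptor, without and with its ligand, changes gene expression.

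The libraries held 39902456 to 55387538 estimated counts. ESR2, the transduced gene, was at 0.132 to 0.14 CPM (counts per 1000000, with TMM-scaled library sizes) in control libraries, 115 to 118 CPM in ERβ1 libraries and 82.2 to 87.7 CPM with CLI, so each library carried the receptor its label gives. Of the line's markers, VIM, CD44, EGFR and AXL stood at 548 CPM or more in each library. The progesterone receptor gene PGR did not exceed 0.124 CPM, while the receptor gene ERBB2 was at 83.7 to 126 CPM. Of 9 luminal breast markers, KRT8, KRT19 and XBP1 stood at 114 CPM or more in each library and the rest at 11.9 CPM or less. ESR1, the gene of oestrogen receptor alpha, did not exceed 0.114 CPM in control and ERβ1 libraries but was at 0.765, 5.98 and 0.0677 CPM in the 3 CLI libraries. The receptor libraries numbered 2 stood apart from those numbered 1 and 3: the chi-square per gene between replicates was 21.7 to 23.8 where a receptor library numbered 2 was involved and 11.7 to 14.6 otherwise.

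Of the 190 genes, 164 had enough counts to be tested. The 26 that did not reach the count filter had at most 33 counts in any library. The filter asked for a minimum level in at least as many libraries as a group holds, whatever their groups. A gene expressed in 1 group alone could pass it. Over all libraries, 18 of the 190 genes averaged 100 CPM or more, 83 lay between 10 and 100 CPM, 42 between 1 and 10 CPM and 47 under 1 CPM. The 10 most abundant held 48.4% of the CPM summed over all of them. Per kilobase of exon, the highest levels were those of SLC7A5 (223 CPM per kb), SLC1A5 (178), the endoplasmic reticulum zinc carrier SLC39A7 (74.3), SLC3A2 (68.9), SLC43A3 (62.3), the nucleoside carrier SLC29A1 (57.0), the arginine and lysine carrier SLC7A1 (55.6), the phosphate carrier SLC20A1 (47.2), the zinc carrier SLC39A1 (45.4) and the lactate exporter SLC16A3 (45.1).

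ERβ1 cells without ligand were first compared with control cells. Abundant amino acid carriers fell: SLC1A5 by 30%, SLC38A2 by 28.9% and SLC7A1 by 21.4%. Carriers at lower levels rose, among them the iron exporter SLC40A1 (1.87-fold), the organic cation carrier SLC22A3 (1.8-fold) and the amino acid carrier SLC43A2 (1.92-fold). In edgeR's quasi-likelihood test, adjusted over all 17058 genes and called at an adjusted p under 0.05, 23 of the 164 tested genes were higher in ERβ1 cells, or 14%, where 10.7% of all genes tested were higher. A further 15 were lower, or 9.15%, where 10.7% of all genes tested were lower. The groups did not overlap in CPM for 66 of the 164 genes, or 40.2%, against 39.6% of all genes. Only 5 of the 164 were called with a change of at least 2-fold, a share of 3.05% against 3.67% of all genes. The median log2 fold change of the 164 genes was 0.05, and the median over all genes was -0.00057. Both shares lay within a few percentage points of the background. The count of 15 lower genes was 8 without ERβ1 replicate 3 and 9 without control replicate 2. Calls over all genes, in either direction, also went down in these fits, from 3645 to 2609 and 2517.

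**Figure D1:**
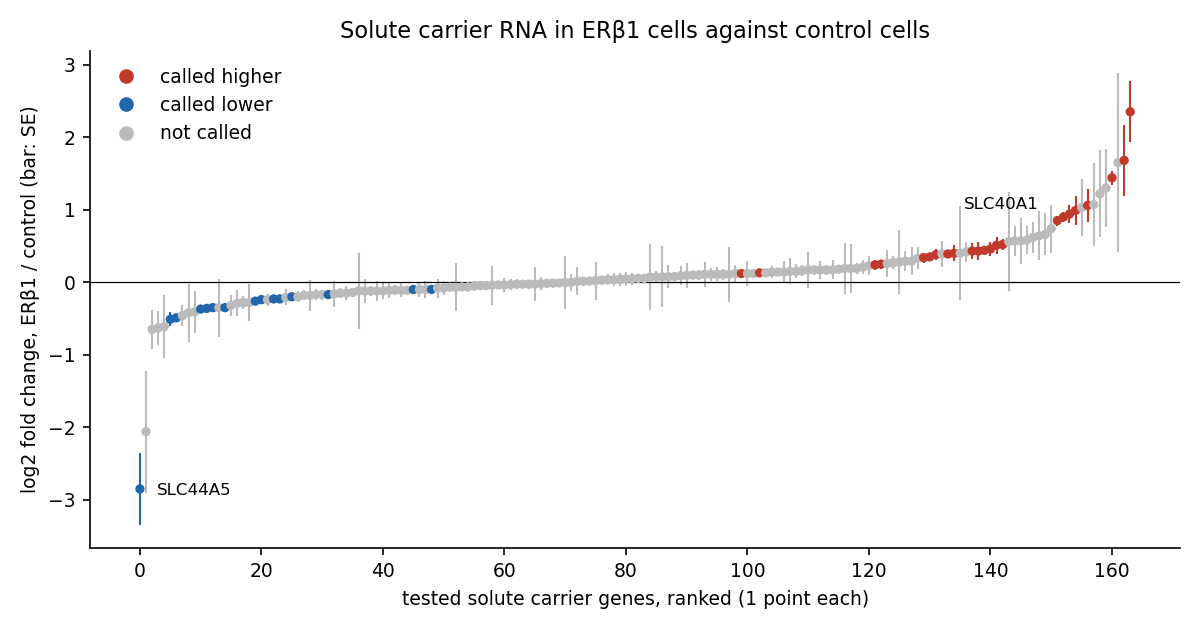
Log2 fold change of each of the 164 tested solute carrier genes in ERβ1 cells against control cells, ranked from lowest to highest (points, with bars of 1 SE; red, called higher; blue, called lower; grey, not called). Most genes lie close to 0, with 135 of 164 within 0.5 of it, and SLC44A5 stands at the low end.

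The genes that fell were the more abundant. The median level over all libraries was 154 CPM for the 15 genes that fell, 10.8 CPM for the 23 that rose and 16.5 CPM for all 164. Of the 10 highest per kilobase of exon, 6 fell, 1 rose and 3 were not called. The 6 include SLC39A7 and SLC39A1, whose calls were lost in 15 and 16 of 20 alternative settings. Of 7 abundant marker genes of the line, outside the carriers, 3 fell and 0 rose, against 10.7% each of all genes tested. They were listed for cell identity and are no set matched by level. The share that fell among all genes of such levels was not computed, so whether the falls are particular to carriers is not known. The count of calls depends on level through counting error, so these medians are a description of the called genes only. Summed over all 190 genes, the CPM were 9221, 9253 and 9017 in the libraries of control cells, 8663, 8321 and 8647 in those of ERβ1 cells and 8690, 8391 and 8685 with CLI. Each receptor library lay below each control library, and the mean fell by 6.76% in ERβ1 cells. The mean went from 9163 to 8544 CPM over all carriers and from 4310 to 3649 CPM over the amino acid carriers alone. The latter fall is the larger, so the other carriers together did not fall.

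Amino acid carriers made up the largest class, with 30 tested genes by family number. In ERβ1 cells 8 of them fell (26.7%, against 10.7% of all genes tested), 3 rose (10%, against 10.7%) and 19 were not called. Because the class follows family number, the falls include SLC43A3, known to carry purine bases, and the rises include the creatine carrier SLC6A8. Of the 134 tested carriers outside the class, 7 fell (5.22%) and 20 rose (14.9%). The CPM summed over the class were 4326, 4341 and 4264 in the libraries of control cells, 3683, 3526 and 3739 in those of ERβ1 cells and 3748, 3487 and 3768 with CLI. No receptor library reached the control range, and the class mean was lower by 15.3% in ERβ1 cells. The median log2 fold change of the class was 0.03, of opposite sign to the change in the sum, which rests on the abundant genes. SLC1A5, SLC7A1, SLC38A2, SLC38A1, SLC43A3 and SLC7A5 together accounted for a difference in means of -576 of the class's -661 CPM. Of this, SLC43A3 gave -54.9 CPM.

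SLC1A5 takes up glutamine and other small neutral amino acids in exchange for others (chromosome 19, 46774883 to 46788594, minus strand, GRCh38). It was at 739, 712 and 757 CPM in control libraries, 515, 462 and 569 CPM in ERβ1 libraries and 549, 450 and 595 CPM with CLI. All 6 receptor libraries lay below the control range, and in both receptor groups replicate 2 was the lowest. The log2 fold change in ERβ1 cells was -0.51 ± 0.1 (SE, edgeR adjusted p = 0.0078). SLC1A4, a carrier of alanine, serine and cysteine in the same family, was at 81.3, 85.2 and 83.5 CPM in control libraries, 64.0, 65.7 and 67.0 CPM in ERβ1 libraries and 69.2, 63.6 and 66.5 CPM with CLI. Its log2 fold change was -0.35 ± 0.042 (SE, adjusted p = 0.000572). SLC1A3, a glutamate and aspartate carrier, was not called, with control libraries at 2.77, 3.01 and 3.77 CPM and ERβ1 libraries at 4.46, 3.76 and 3.77 CPM (log2 fold change 0.33 ± 0.15, adjusted p = 0.159).

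The sodium-coupled neutral amino acid carriers SLC38A2 and SLC38A1, which also bring in glutamine, lie near each other on chromosome 12. SLC38A2 was at 254, 261 and 276 CPM in control libraries, 191, 192 and 179 CPM in ERβ1 libraries and 199, 200 and 206 CPM with CLI. Both receptor groups lay below the control group, and the log2 fold change in ERβ1 cells was -0.49 ± 0.041 (SE, adjusted p = 7.55e-05). SLC38A1 was at 426, 432 and 430 CPM in control libraries, 366, 362 and 366 CPM in ERβ1 libraries and 359, 365 and 360 CPM with CLI. Its spread within a group was small, so that a change of -15.0% was called (log2 fold change -0.23 ± 0.024, adjusted p = 0.000214).

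The cationic amino acid carriers SLC7A1 and SLC7A2 import arginine, lysine and ornithine. SLC7A1 was at 528, 511 and 484 CPM in control libraries, 393, 400 and 404 CPM in ERβ1 libraries and 377, 370 and 380 CPM with CLI (log2 fold change in ERβ1 cells -0.35 ± 0.035, adjusted p = 0.000203). SLC7A2 was at 37.0, 36.2 and 35.3 CPM in control libraries, 29, 27.7 and 27.1 CPM in ERβ1 libraries and 24.9, 26.3 and 27.4 CPM with CLI (log2 fold change -0.37 ± 0.051, adjusted p = 0.00113). For both genes the receptor libraries were below the control libraries without overlap. SLC66A1, a lysosomal exporter of cationic amino acids, fell by 0.36 on the log2 scale (adjusted p = 0.00277). It lies in a 10 Mb window of chromosome 1 whose 92 tested genes had a median log2 fold change of -0.3, so its change was close to that of its neighbours.

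SLC7A5 and SLC3A2 form the exchanger that brings in leucine and other large neutral amino acids. Neither was called. SLC7A5 was at 1113, 1092 and 1045 CPM in control libraries, 1036, 1016 and 1046 CPM in ERβ1 libraries and 1086, 1042 and 1051 CPM with CLI. These groups overlapped, with a log2 fold change of -0.069 ± 0.03 in ERβ1 cells (adjusted p = 0.141). SLC3A2 was at 370, 370 and 380 CPM in control libraries, 376, 284 and 371 CPM in ERβ1 libraries and 381, 309 and 372 CPM with CLI. In each receptor group replicate 2 was lower than the rest (log2 fold change in ERβ1 cells -0.12 ± 0.11, adjusted p = 0.496).

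SLC43A2, another carrier of large neutral amino acids, rose. It was at 4.42, 3.55 and 3.75 CPM in control libraries, 7.78, 7.76 and 6.93 CPM in ERβ1 libraries and 9.85, 8.05 and 8.26 CPM with CLI. All receptor libraries lay above all control libraries (log2 fold change in ERβ1 cells 0.94 ± 0.12, adjusted p = 0.000772). SLC43A3, which belongs to the same family but is known to carry purine bases, fell in ERβ1 cells by 0.26 on the log2 scale (adjusted p = 0.014). That call was lost without ERβ1 replicate 3 or control replicate 1, where the highest adjusted p was 0.0575. The creatine carrier SLC6A8 rose by 34.3%, with control libraries at 7.64, 8.12 and 10.2 CPM and ERβ1 libraries at 11.4, 12.9 and 10.5 CPM (adjusted p = 0.0339). The glutamate carrier SLC1A7 rose from 28 counts over the control libraries to 155 over the ERβ1 libraries (log2 fold change 2.35 ± 0.42, adjusted p = 0.00456). Its control libraries were at 0.066, 0.233 and 0.349 CPM and its ERβ1 libraries at 1.26, 1.05 and 1.02 CPM.

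**Figure D2:**
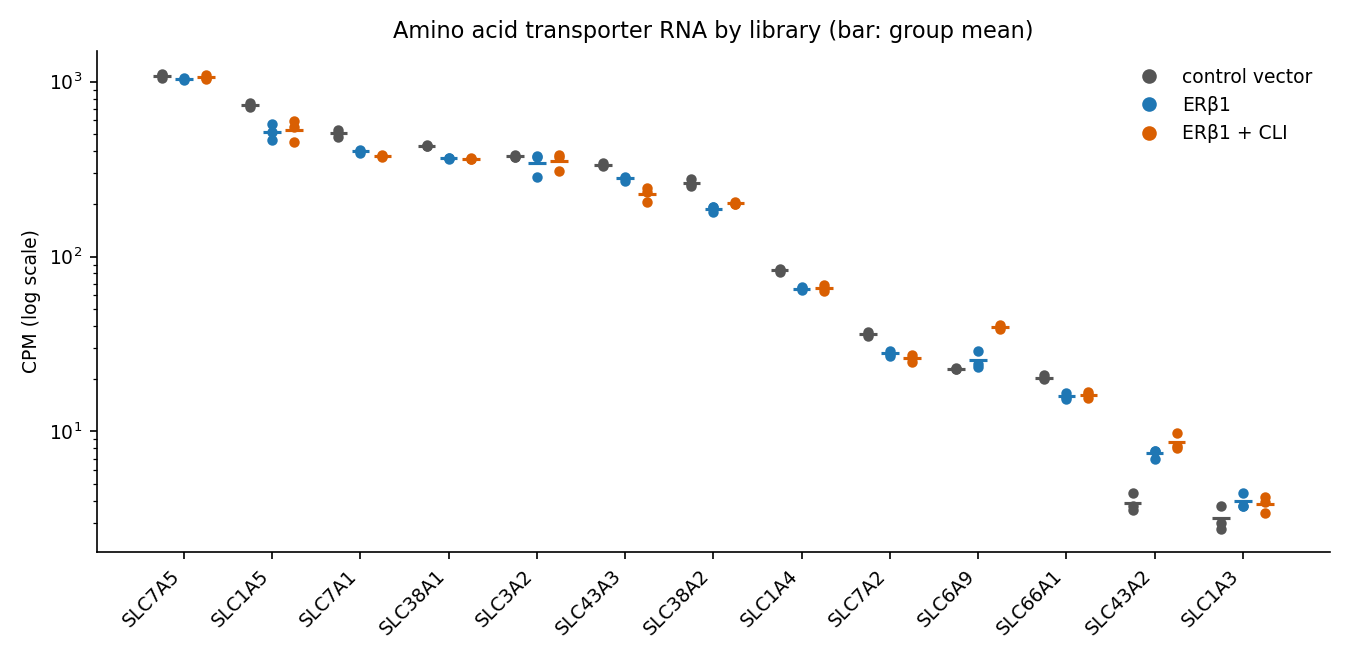
CPM on a log scale of 13 genes of the amino acid carrier class, placed by family number and including SLC43A3, in each of the 9 libraries (points; grey, control vector; blue, ERβ1; orange, ERβ1 with CLI; short bars, group means). SLC1A5, SLC7A1, SLC38A1, SLC38A2 and SLC1A4 were lower in both receptor groups, SLC7A5 stayed between 1016 and 1113 CPM in each library, and SLC6A9 was highest in the CLI libraries.

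Several of these carriers are textbook targets of ATF4, the transcription factor of the amino acid response, which binds a composite C/EBP-ATF element. The letters TGATGCAA of that element were searched on both strands of the RefSeq promoter table (GRCh38.p14), which gives 250 bases before and 50 after each annotated start. It held 226 promoters of 150 of the 190 genes. A match was found in 3 of the 226 promoters (1.33%), 1 each of SLC1A3, SLC1A4 and SLC1A5, and in 0.866% of all 35116 promoters. SLC1A4 and SLC1A5 fell in ERβ1 cells and SLC1A3 was not called. The 3 promoters are shown because in them these letters begin before an annotated start of 3 genes of 1 family. The matched letters are in capitals on the gene's strand.
SLC1A4: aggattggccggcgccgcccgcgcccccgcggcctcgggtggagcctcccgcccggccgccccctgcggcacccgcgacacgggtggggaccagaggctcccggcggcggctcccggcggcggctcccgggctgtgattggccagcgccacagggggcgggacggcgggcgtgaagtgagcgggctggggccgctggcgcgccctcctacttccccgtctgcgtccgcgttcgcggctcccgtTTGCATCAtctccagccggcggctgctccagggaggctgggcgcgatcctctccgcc
SLC1A5: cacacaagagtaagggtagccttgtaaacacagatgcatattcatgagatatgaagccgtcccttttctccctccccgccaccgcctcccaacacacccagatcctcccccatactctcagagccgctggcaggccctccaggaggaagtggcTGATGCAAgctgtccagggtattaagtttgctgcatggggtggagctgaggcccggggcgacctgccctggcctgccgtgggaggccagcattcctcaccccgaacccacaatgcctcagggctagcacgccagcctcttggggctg
SLC1A3: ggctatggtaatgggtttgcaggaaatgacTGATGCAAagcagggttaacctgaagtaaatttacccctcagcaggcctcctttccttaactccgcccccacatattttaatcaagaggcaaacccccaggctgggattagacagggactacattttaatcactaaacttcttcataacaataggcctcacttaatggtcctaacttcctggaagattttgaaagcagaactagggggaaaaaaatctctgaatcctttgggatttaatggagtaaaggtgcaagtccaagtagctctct
The SLC1A4 window is chr2:64989149-64989448 on the plus strand, and its match, in reverse orientation, begins 7 bases before the start. That start lies 922 bases inside the span that GENCODE 29 annotates for the gene. The SLC1A5 window is chr19:46784765-46785064 on the minus strand, and its match begins 97 bases before the start. That start lies 3780 bases inside the gene's GENCODE 29 span. The SLC1A3 window is chr5:36596338-36596637 on the plus strand, with the match 220 bases before the start. That start lies 9767 bases upstream of the gene's GENCODE 29 span. These matches are descriptions of the letters, and binding was not measured.

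Other motifs were also counted on both strands of the same windows. The palindromic oestrogen response element, GGTCA and TGACC with 3 bases between them, was found in 0 of the 226 promoters and in 0.057% of all promoters. Its half-site GGTCA, which the palindrome contains, was found in 32.3% of the carriers' promoters and 37.4% of all. The AP-1 letters TGANTCA were found in 9.29% and 7.71%, and the E-box CACGTG in 11.1% and 7.26%.

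The classes of metal carriers are small, and their counts of calls are given as description. Of the 10 tested genes for iron, copper, magnesium and haem, 2 rose (20%) and 0 fell in ERβ1 cells, where 10.7% of all genes tested rose and 10.7% fell. SLC40A1 encodes ferroportin, the exporter of cellular iron (chromosome 2, 189560579 to 189583758, minus strand). It was at 7.04, 6.3 and 6.38 CPM in control libraries, 12.6, 12.4 and 11.9 CPM in ERβ1 libraries and 13.1, 14 and 13.1 CPM with CLI. The 6 receptor libraries lay well above the 3 control libraries, and the log2 fold change was 0.90 ± 0.072 in ERβ1 cells (adjusted p = 5.87e-05). The magnesium carrier SLC41A2 rose by 0.46 on the log2 scale (adjusted p = 0.0144), a call that was lost without control replicate 2 or 3 (highest adjusted p 0.0529). Of 8 other genes of iron handling, 4 rose and 2 fell in ERβ1 cells, beside 10.7% each of all genes tested. Ferritin light chain FTL fell by 0.22 and the transferrin receptor TFRC by 0.14 on the log2 scale, while haem oxygenase HMOX1 rose by 0.67.

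Metal response elements, bound by the zinc sensor MTF1, have the core letters TGCGCNC or TGCACNC. The TGCGCNC form was found in 23.5% of the 226 promoters and in 20% of all promoters, and the TGCACNC form in 12.4% and 12.1%. The promoter of SLC40A1 is shown because the gene had the largest called rise among the metal carriers with at least 2 CPM and because it holds the TGCGCNC letters once on each strand, in capitals.
SLC40A1: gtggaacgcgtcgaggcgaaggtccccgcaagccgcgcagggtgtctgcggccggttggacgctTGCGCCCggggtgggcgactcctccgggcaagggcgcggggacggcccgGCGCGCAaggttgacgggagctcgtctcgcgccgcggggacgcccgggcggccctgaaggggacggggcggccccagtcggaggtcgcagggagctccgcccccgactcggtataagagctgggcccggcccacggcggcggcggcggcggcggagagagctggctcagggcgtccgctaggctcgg
This window is chr2:189580737-189581036 on the minus strand, at a start inside the gene's longest annotated span, and the matches begin 186 and 137 bases before that start. Of 5 tested metallothionein genes, which respond to zinc through the same element, 2 rose and 1 fell in ERβ1 cells. Among all genes tested 10.7% rose and 10.7% fell. MT1X rose from 11.7, 11.4 and 12 CPM to 21.1, 21.9 and 20.1 CPM, and was at 24.4, 23.4 and 23.8 CPM with CLI. In ERβ1 cells MT2A rose by 0.25 and MT1E fell by 0.19 on the log2 scale. With CLI against control cells MT1E was lower by 0.51 and MT2A was not called.

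Of 18 tested zinc carriers, 2 rose and 2 fell in ERβ1 cells (11.1% each, against 10.7% each of all genes tested). The CPM summed over the class moved little and overlapped between all groups (1199 to 1223 in control libraries, 1194 to 1230 in ERβ1 libraries and 1186 to 1202 with CLI). SLC39A9, a zinc importer of internal membranes, was at 79.2, 75.8 and 79.0 CPM in control libraries, 99.3, 106 and 101 CPM in ERβ1 libraries and 103, 104 and 103 CPM with CLI. The receptor libraries were all higher (log2 fold change 0.39 ± 0.036, adjusted p = 0.000132). SLC39A9 lies in the same 10 Mb window of chromosome 14 as ESR2, a window whose 70 tested genes had a median log2 fold change of 0.3. ERH, which overlaps SLC39A9 on the other strand, also rose, by 0.23 on the log2 scale (adjusted p = 0.00198). SLC30A4, which loads zinc into vesicles, rose by 0.24 on the log2 scale (adjusted p = 0.0374). SLC39A7 fell by 6.86% and SLC39A1 by 6.6%, with adjusted p of 0.0453 and 0.0464 that were over 0.05 in 15 and 16 of 20 alternative settings. SLC39A6, known as an oestrogen-regulated zinc importer in breast cells, was at 65.1, 68.7 and 68.2 CPM in control libraries, 61.0, 62.7 and 60.1 CPM in ERβ1 libraries and 62.2, 67.7 and 68.0 CPM with CLI, and was not called (adjusted p = 0.0661 in ERβ1 cells). The zinc exporter SLC30A1 was not called either (log2 fold change 0.18 ± 0.058, adjusted p = 0.0535).

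Of 12 tested monocarboxylate and dicarboxylate carriers, 2 rose (16.7%) and 0 fell in ERβ1 cells, against 10.7% each of all genes tested. SLC16A1, known as MCT1, moves lactate and pyruvate with protons. It was at 7.64, 8.49 and 7.76 CPM in control libraries, 11.8, 12 and 10.6 CPM in ERβ1 libraries and 12.1, 12.3 and 11.2 CPM with CLI (log2 fold change in ERβ1 cells 0.52 ± 0.081, adjusted p = 0.00215). SLC16A3, known as MCT4 and the main lactate exporter of glycolytic cells, was far more abundant and was not called. Its libraries stood at 402 to 424 CPM in control cells, 385 to 420 CPM in ERβ1 cells and 385 to 403 CPM with CLI, and the groups overlapped (log2 fold change in ERβ1 cells -0.037 ± 0.04, adjusted p = 0.574).

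**Figure D3:**
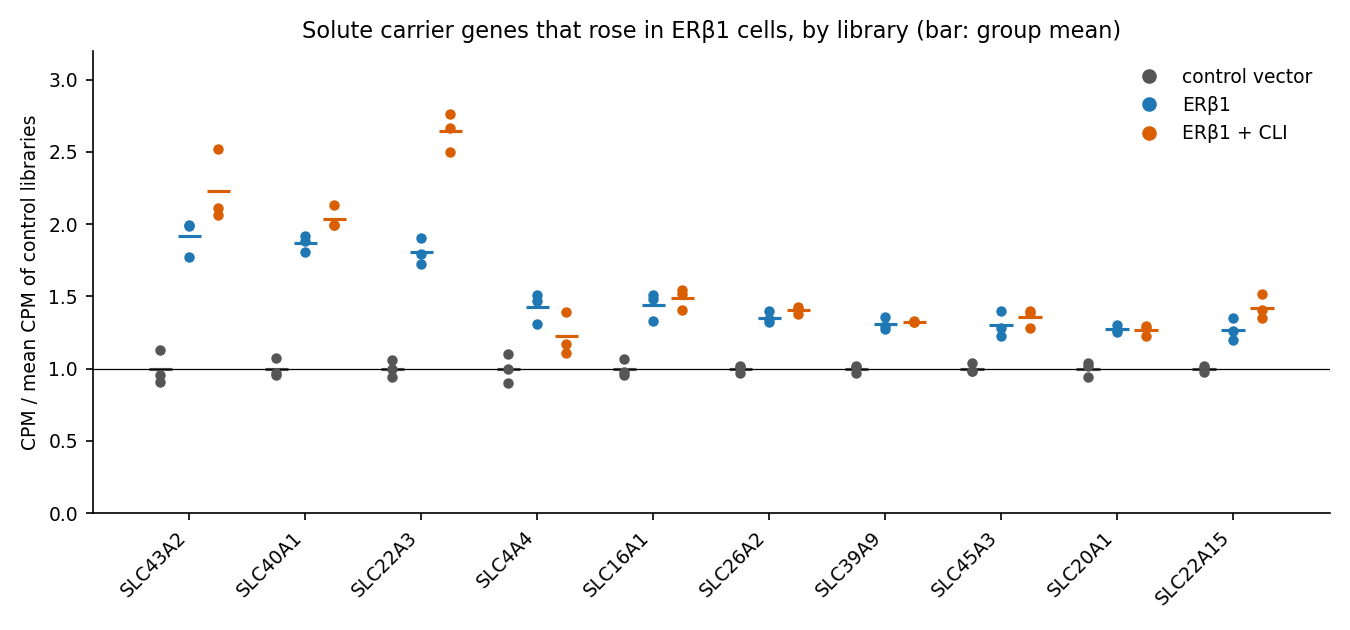
CPM of 10 of the 23 solute carrier genes that rose in ERβ1 cells, each divided by the mean of its control libraries, in each of the 9 libraries (points; grey, control vector; blue, ERβ1; orange, ERβ1 with CLI; short bars, group means). For each of the 10 genes the ERβ1 libraries lie above the control libraries, and SLC22A3 lies higher again with CLI.

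Carriers of organic ions, 15 tested genes, included 2 that rose (13.3%) and 0 that fell in ERβ1 cells, against 10.7% each of all genes tested. SLC22A3, known as OCT3, carries monoamines and other organic cations such as metformin (chromosome 6, 160348268 to 160452581, plus strand). It was at 11.7, 11 and 10.4 CPM in control libraries, 21.0, 19.8 and 19.0 CPM in ERβ1 libraries and 27.6, 29.4 and 30.5 CPM with CLI, so that the 3 groups stood in that order without overlap. The log2 fold change in ERβ1 cells was 0.85 ± 0.069 (adjusted p = 6.5e-05). SLC22A15 rose from 12.5, 12.7 and 12.2 CPM to 15.7, 16.8 and 14.9 CPM (log2 fold change 0.34 ± 0.069, adjusted p = 0.00782).

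Among nucleoside carriers, SLC29A1, the equilibrative carrier that also takes up nucleoside drugs, was at 299, 287 and 251 CPM in control libraries and 247, 228 and 236 CPM in ERβ1 libraries. It fell by 14.9% (adjusted p = 0.0251). The concentrative carrier SLC28A3 was at 0.616, 0.677 and 0.769 CPM in control libraries, 1.19, 1.45 and 1.46 CPM in ERβ1 libraries and 0.765, 0.645 and 0.926 CPM with CLI. It was higher in ERβ1 cells than in control cells (log2 fold change 0.99 ± 0.2, adjusted p = 0.00896), and its CLI libraries lay below its ERβ1 libraries without being called (log2 fold change -0.81 ± 0.2, adjusted p = 0.108). The lysosomal carrier SLC29A3 rose by 32.2% (adjusted p = 0.0302).

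The plasma membrane phosphate importer SLC20A1 was at 210, 232 and 227 CPM in control libraries, 282, 280 and 291 CPM in ERβ1 libraries and 273, 289 and 286 CPM with CLI. It was the most abundant carrier that rose (log2 fold change 0.35 ± 0.042, adjusted p = 0.000568). The sulphate carrier SLC26A2 was at 45.5, 45.7 and 43.5 CPM in control libraries, 60.3, 62.8 and 59.3 CPM in ERβ1 libraries and 62.0, 64.1 and 63.5 CPM with CLI. Its 6 receptor libraries lay above the control libraries (log2 fold change 0.44 ± 0.039, adjusted p = 0.000111). Of the 19 tested carriers of protons, bicarbonate and anions, 3 rose (15.8%) and 1 fell (5.26%), against 10.7% each of all genes tested. Beside SLC26A2, the anion exchanger SLC26A6 rose by 34.7% and the sodium bicarbonate carrier SLC4A4 by 42.8%, and the Golgi sodium and proton exchanger SLC9A8 fell by 15.2% (adjusted p from 0.0152 to 0.0264).

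Of 19 tested carriers of sugars and related solutes, 3 rose (15.8%) and 0 fell in ERβ1 cells, against 10.7% each of all genes tested. The rises were those of SLC2A10 by 1.06, SLC45A3 by 0.38 and SLC37A2 by 0.12 on the log2 scale. SLC2A10, a glucose carrier family member of internal membranes, was at 1.3, 1.17 and 1.82 CPM in control libraries and 2.95, 3.69 and 2.28 CPM in ERβ1 libraries, without overlap (adjusted p = 0.0113, and 0.0824 at most in the alternative settings). Among 9 tested cation and chloride carriers, the potassium and chloride cotransporter SLC12A7 rose by 19.2% (adjusted p = 0.0204) and the sodium, potassium and chloride cotransporter SLC12A2 was not called (adjusted p = 0.4). Among 17 carriers of fatty acids, choline and vitamins, the vitamin C carrier SLC23A2 rose by 9.77%, the thiamine carrier SLC19A3 rose from 23 counts over the control libraries to 79, and SLC44A5 fell. SLC44A5, of the choline carrier-like family, was at 1.28, 1.28 and 1.68 CPM in control libraries, 0.229, 0.285 and 0.0497 CPM in ERβ1 libraries and 0.139, 0.313 and 0.384 CPM with CLI. Its fall of 2.85 ± 0.5 on the log2 scale (adjusted p = 0.00424) rests on 185 counts in control cells and 28 in ERβ1 cells, and its window of chromosome 1 had a median of -0.25 over 33 tested genes. SLC35A5, of the nucleotide sugar carrier family, fell by 12.8% and SLC17A5, the lysosomal sialic acid exporter, by 11.2% (adjusted p = 0.0269 and 0.0222).

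Of the 38 calls in ERβ1 cells against control cells, 19 held in all alternative settings. Among these were the falls of SLC1A5, SLC1A4, SLC38A1, SLC38A2, SLC7A1 and SLC7A2 and the rises of SLC16A1, SLC20A1, SLC22A3, SLC26A2, SLC40A1 and SLC43A2. Leaving out 1 library ended 16 calls, those of SLC6A8, SLC12A7, SLC17A5, SLC19A3, SLC23A2, SLC26A6, SLC29A1, SLC29A3, SLC30A4, SLC35A5, SLC37A2, SLC39A1, SLC39A7, SLC41A2, SLC43A3 and SLC9A8. Control replicate 1 ended 15 of them, control replicate 2 ended 14, control replicate 3 ended 6, ERβ1 replicates 1, 2 and 3 ended 10, 9 and 13, and CLI replicates 1, 2 and 3 ended 2, 3 and 4.

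The next comparison was between ERβ1 cells with and without CLI for 24 h. Few carriers moved: SLC6A9, SLC22A3 and SLC47A1 rose and SLC43A3 fell. That is 3 of 164 higher, or 1.83%, where 1.04% of all genes tested were higher, and 1 lower, or 0.61%, where 0.428% were lower. Groups did not overlap for 37 of the 164 genes (22.6%, against 18.8% of all genes), and 26 (15.9%, against 12.8% of all genes) had an unadjusted p under 0.05. A call with a change of at least 2-fold was made for 1 of the 164, against 0.252% of all genes. The replicate numbers of these 6 libraries met the criterion for pairs, although libraries 1 and 3 correlated about as highly with each other's number as with their own. With the replicate number as a block over all 9 libraries the counts were 3 higher and 0 lower, and with the block in the 6 libraries compared they were 1 higher and 0 lower. Without both receptor libraries numbered 2 the counts were 1 and 1. Over all genes, the block in 9 libraries, the block in 6 and this last fit called 136, 66 and 72 genes. Without these changes 251 were called.

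SLC6A9, known as GLYT1, imports glycine with sodium and chloride (chromosome 1, 43991500 to 44031467, minus strand). It was at 23.0, 22.8 and 22.9 CPM in control libraries, 29, 23.4 and 24.3 CPM in ERβ1 libraries and 40.6, 38.5 and 39.5 CPM with CLI. The CLI libraries stood well above the other 6, with replicate 1 the highest of the ERβ1 libraries. The log2 fold change with CLI was 0.63 ± 0.075 (adjusted p = 0.00437), and the call held in all 20 alternative settings, with a highest adjusted p of 0.0495. CCDC24, which overlaps SLC6A9 on the other strand, was at 3.75 to 6.33 CPM over all libraries and was not called with CLI against ERβ1 cells (log2 fold change 0.27 ± 0.129, adjusted p = 0.439). Against control cells SLC6A9 was not called in ERβ1 cells without CLI (log2 fold change 0.16 ± 0.076, adjusted p = 0.177) and rose by 0.79 ± 0.076 with CLI (adjusted p = 0.000111). CCDC24 also rose with CLI against control cells, by 0.5 ± 0.13 on the log2 scale (adjusted p = 0.021), and its part in the counts of SLC6A9 was not tested.

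SLC22A3, already higher in ERβ1 cells, rose further with CLI, by 0.55 ± 0.068 on the log2 scale (adjusted p = 0.00497). Its adjusted p was 0.0824 without the receptor libraries numbered 2 and 0.0883 with the block in 6 libraries, at log2 fold changes of 0.54 and 0.55. SLC47A1, known as MATE1, exports organic cations in exchange for protons. It was at 1.47, 1.77 and 1.3 CPM in control libraries, 2.43, 1.66 and 2.71 CPM in ERβ1 libraries and 5.31, 7.27 and 6.41 CPM with CLI. The CLI group lay above the other groups, and replicate 2 was the lowest ERβ1 library and the highest CLI library. Its log2 fold change was 1.49 ± 0.21 (adjusted p = 0.00911), and 1.19 without the receptor libraries numbered 2 (adjusted p = 0.0684). With the block in 6 libraries its adjusted p was 0.112.

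SLC43A3 was at 341, 333 and 331 CPM in control libraries, 283, 285 and 272 CPM in ERβ1 libraries and 245, 205 and 235 CPM with CLI. The groups descended in that order without overlap, and replicate 2 was the lowest CLI library. The log2 fold change with CLI was -0.30 ± 0.058 (adjusted p = 0.0486), a call lost in 12 of 20 alternative settings. Those included leaving out any 1 of the control or ERβ1 libraries or CLI replicate 3, and the block, with adjusted p of 0.082 in 9 and 0.188 in 6 libraries. A read-through gene, AP000781.2, overlaps SLC43A3 on the same strand and stood at 0.348 to 0.916 CPM. Just short of the threshold were the sialic acid exporter SLC17A5, at 44.1, 45.9 and 43.8 CPM without and 52.1, 50.4 and 52.6 CPM with CLI (adjusted p = 0.0522), and the vesicular ATP carrier SLC17A9, at 55.1, 58.5 and 58.8 CPM without and 64.6, 77 and 71.4 CPM with CLI (adjusted p = 0.0537).

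**Figure D4:**
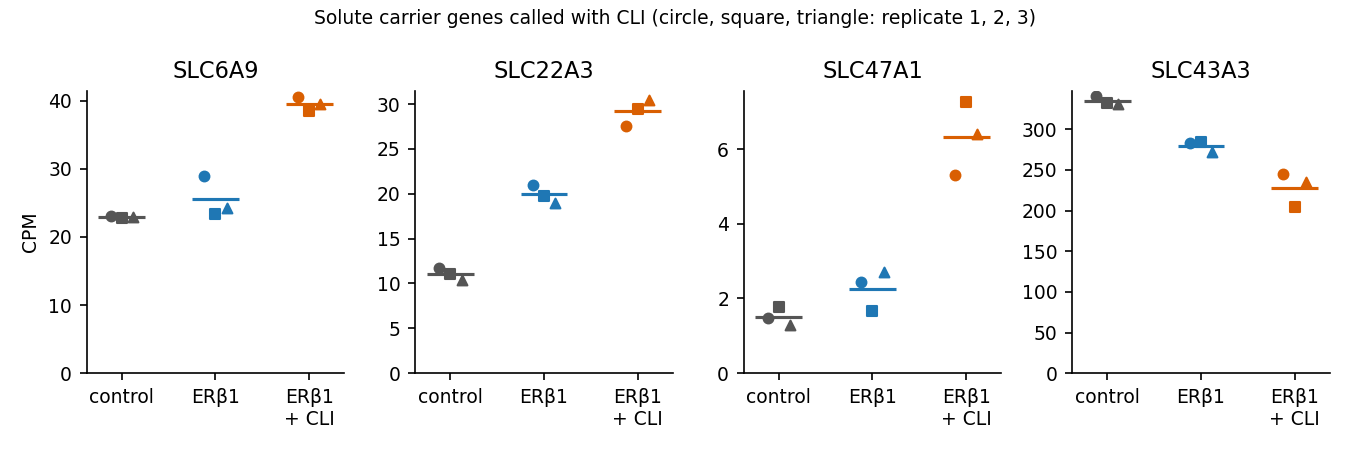
CPM of the 4 solute carrier genes called in ERβ1 cells with CLI against ERβ1 cells without it, in each library of the 3 groups (circles, squares and triangles mark replicates 1, 2 and 3; bars, group means; axes start at 0). SLC6A9 changed little from control to ERβ1 cells and was higher with CLI, SLC22A3 rose and SLC43A3 fell at both steps, and replicate 2 of SLC47A1 was the lowest ERβ1 and the highest CLI library.

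Carriers of organic ions held 2 of the 3 rises with CLI (13.3% of the 15 tested in the class, against 1.04% of all genes tested). The CPM summed over this class were 153, 159 and 155 in the libraries of control cells, 181, 163 and 169 in those of ERβ1 cells and 209, 197 and 200 with CLI. The 3 groups did not overlap, and the class sum was higher than in control cells by 9.62% without and 29.5% with CLI. Without SLC22A3 the class sums were 141 to 148 CPM in control libraries, 144 to 160 CPM in ERβ1 libraries and 168 to 181 CPM with CLI. The control and ERβ1 groups then overlapped, and the rises over control cells were 4.67% and 19.7%. The carnitine carrier SLC22A5 was at 16, 14.5 and 15.4 CPM in ERβ1 libraries and 19.9, 16.1 and 19.1 CPM with CLI, without a call (adjusted p = 0.246).

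ERβ1 cells with CLI were also compared with control cells. This comparison shares its libraries with the other comparisons and is no independent repeat of either. In it 35 of the 164 genes were higher (21.3%, against 13.3% of all genes tested) and 19 were lower (11.6%, against 13.1%). Groups did not overlap for 76 genes (46.3%, against 41.7%), and 10 were called with a change of at least 2-fold (6.1%, against 4.77%). The median log2 fold change was 0.047, against -0.00023 over all genes, and the median absolute log2 fold change was 0.25, against 0.187 over all genes.

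Of the 30 tested genes of the amino acid class, 9 were lower (30%, against 13.1% of all genes tested) and 6 higher (20%, against 13.3%). SLC43A3 was among the 9 and SLC6A8 among the 6. Of the 134 other tested carriers, 10 were lower (7.46%) and 29 higher (21.6%). The values with CLI were -0.47 for SLC1A5, -0.39 for SLC38A2, -0.43 for SLC7A1, -0.47 for SLC7A2, -0.33 for SLC1A4, -0.25 for SLC38A1 and -0.55 for SLC43A3, all log2 fold changes against control cells (adjusted p from 3.81e-05 to 0.00941). The rises included SLC22A3 (1.40 ± 0.069), SLC47A1 (2.06 ± 0.21), SLC43A2 (1.16 ± 0.12) and SLC40A1 (1.02 ± 0.072), with adjusted p from 2.41e-06 to 0.000167. SLC37A4, which brings glucose 6-phosphate into the endoplasmic reticulum, was at 70.1, 70.9 and 68.8 CPM in control libraries, 57.4, 39.5 and 55.7 CPM in ERβ1 libraries and 53.3, 38.9 and 53.2 CPM with CLI. Replicate 2 was the lowest in both receptor groups, and the gene was called with CLI (log2 fold change -0.53 ± 0.15, adjusted p = 0.0331) but not without it (-0.46 ± 0.15, adjusted p = 0.0647). The call with CLI was lost without CLI replicate 2 or without any 1 control library (highest adjusted p 0.0886).

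**Figure D5:**
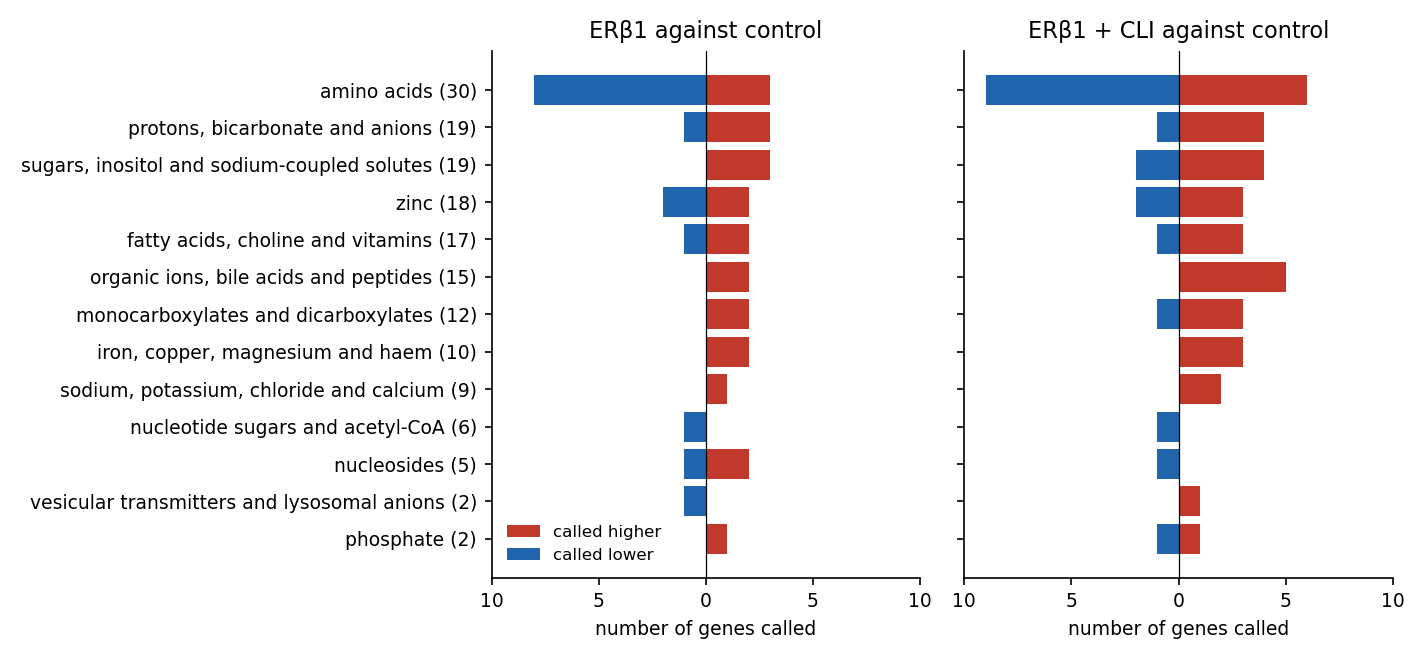
Number of solute carrier genes called higher (red, to the right) and lower (blue, to the left) in ERβ1 cells and in ERβ1 cells with CLI, each against control cells, by class of transported solute (number of tested genes in brackets). The amino acid class, which by family number includes SLC43A3, gave 8 of the 15 falls in ERβ1 cells and 9 of the 19 with CLI. These were 26.7% and 30% of its 30 tested genes, where 10.7% and 13.1% of all genes tested fell. The median log2 fold change of the class was 0.03 without and -0.04 with CLI.

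Other transporter genes were counted beside these. In ERβ1 cells against control cells, 4 of 29 tested ABC transporters rose and 4 fell, 6 of 40 tested mitochondrial SLC25 carriers rose and 2 fell, and 1 of 17 SLC35 genes of families B to G rose and 1 fell. The organic anion SLCO family had 0 rises and 1 fall among 8 tested genes. In that comparison 10.7% of all genes tested rose and 10.7% fell. With CLI against ERβ1 cells, 2 ABC transporters, 1 SLC25 carrier and 1 of the SLC35 genes rose and none of the tested genes of these 4 families fell. There 1.04% of all genes tested rose and 0.428% fell. Of 3 chaperones of the lactate carriers, EMB rose in ERβ1 cells, from 21.7, 19.9 and 19.4 CPM to 25.5, 25 and 25.6 CPM, while BSG and NPTN were not called.

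The receptor libraries numbered 2 touched individual carriers. In both receptor groups this library was the lowest of 3 for 32 of the 164 genes and the highest for 18. Without both of them, 17 genes were higher and 12 lower in ERβ1 cells against control cells, and 30 were higher and 17 lower with CLI against control cells. Calls over all genes were fewer too, at 2998 against 3645 in the first comparison and 3873 against 4512 in the second. Leaving out ERβ1 replicate 3 alone gave 2609 calls over all genes in the first comparison, so the lower counts are not particular to libraries numbered 2. The levels of the carriers are from bulk RNA, in which fewer cells expressing a gene and less RNA per cell cannot be told apart, and protein and transport were not analysed here.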

How the data were processed

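The authors deposited estimated counts per gene for 60240 Ensembl IDs, with no normalization stated, and TMM-normalized log2 CPM for 18934 genes. Per the labels' protocols, stranded mRNA libraries were read for 101 cycles from 1 end. Per the submitters' processing notes, the tools were Salmon 1.2.1, edgeR 3.30.3 in R 4.0.2, Trimmomatic 0.38, bcl2fastq 2.20 and FastQC, on GRCh38. Settings, including strand, and the annotation release are not stated in the sources used. The cell line labels count up across the libraries, but the growth protocol has MDA-MB-231 only, so all libraries were read as that line. The count columns call control cells wild type and were matched by treatment and replicate number.

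The estimated counts were rounded and fitted in R 4.3.3 with edgeR 4.0.16: filterByExpr by group (17058 genes kept), TMM scaling, and 1 quasi-likelihood fit of all 9 libraries with 1 coefficient per group. Tests were 2-sided, with Benjamini-Hochberg adjustment over all genes of a comparison. Each SE is the size of the log2 fold change over the square root of F. An exact permutation test of 3 against 3 libraries cannot give a p under 0.1. Positions and exon lengths come from GENCODE 29, and solutes were assigned by SLC family number. Shifted windows are fixed 10 Mb windows whose median log2 fold change was at least 0.15 in size, with 1 sign, in both comparisons with control cells.

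The named genes were the largest rises (10) and falls (10) among called carriers of at least 2 CPM without overlap (5 and 5 against control cells with CLI), up to 4 called genes per class, the 10 highest per exon length and a list of well-known carriers. Further called genes, and the genes just short of the threshold, were chosen after their values were seen. A few genes that the rule names are not reported here. The members and lists were chosen with earlier results of these data known. The alternatives tried were scaling by RLE, by upper quartile and by TMM without ESR2, other filters, DESeq2 1.42.0, limma-trend (limma 3.58.1) on the deposited log2 CPM, 6 libraries alone, the replicate block and each library left out. Leaving out both receptor libraries numbered 2 was added after seeing the data. Residuals of 13642 genes correlated at 0.129, 0.386 and 0.136 between same-numbered ERβ1 libraries without and with CLI, each over 0.1, so these numbers, taken from the titles, counted as pairs. Differently numbered libraries 1 and 3 correlated as highly, at 0.136 and 0.151, and those of a library 2 with a 1 or 3 at -0.243 to -0.224, so the values set apart number 2 alone. They did not with control libraries. Plots used matplotlib 3.10.9 and pandas 2.3.3 in Python 3.11.15.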

Additional observations from a re-analysis of the deposited data

How the results depend on the processing

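Across the 20 alternative settings no value changed sign where it was called, and RLE scaling and TMM without ESR2 moved no count of called carriers. No scaling moved the median of all genes by more than 0.1 on the log2 scale. Of the called carriers, 19 of 38 in ERβ1 cells against control cells, 1 of 4 with CLI against ERβ1 cells and 30 of 54 with CLI against control cells held in all settings run. With single libraries left out, the counts in ERβ1 cells against control cells ran from 17 to 26 higher and from 8 to 14 lower. With CLI against ERβ1 cells they ran from 3 to 4 higher and 0 to 1 lower, and with CLI against control cells from 24 to 35 higher and 13 to 19 lower. Over all genes the calls ran from 2517 to 3649, 114 to 211 and 3364 to 4376 in these comparisons, in that order. With all libraries they were 3645, 251 and 4512. The median log2 fold change with CLI against control cells ran from 0.048 to 0.072 over these fits. It was 0.058 with at least 1 CPM in 3 libraries, 0.059 without a filter, 0.067 with upper quartile scaling, 0.063 with limma-trend and 0.063 without the receptor libraries numbered 2. With CLI against ERβ1 cells, DESeq2 called 5 higher and 3 lower, the filter of 1 CPM gave 5 higher, no filter gave 2 lower, and the 6 libraries alone and limma-trend gave 0 lower. Without the receptor libraries numbered 2 that comparison gave 1 higher. The causes were not tested. Leaving out carriers in shifted windows moved no count by 1.5 times.

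The replicate block changed these counts. With it in the 6 libraries compared, 12 carriers were higher and 10 lower in ERβ1 cells against control cells, where 23 and 15 were called without it. Over all genes 2230 of 16505 were then called, against 3645 of 17058 without it. With CLI against ERβ1 cells, 1 carrier was higher and 0 were lower. With the block over all 9 libraries, 0 were lower with CLI against ERβ1 cells and 3 were higher. The numbers do not pair control libraries with receptor libraries, so the counts against control cells come from samples that share only a number.

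Depth limits the 47 carriers under 1 CPM, whose changes rest on few counts.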
